A study of Mus musculus with 24 samples.

Results

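The comparison described here asks whether pomalidomide and dexamethasone, given together, moved a gene by more or less than the sum of their separate effects on the log2 scale. It used all 24 of the 24 arrays of the series, 8 groups of 3. The groups were chosen by their titles, and the contrast subtracts the effect of pomalidomide without dexamethasone from its effect with dexamethasone. It was taken as the mean of the arm with filanesib and the arm without filanesib, which hold 12 arrays each and share none. A value of 0 means that the 2 drugs' effects added up. A positive value means a level above that sum, and a negative value a level below it.

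The tumours were plasmacytomas of MM.1S, a human multiple myeloma cell line, grown under the skin of immunodeficient CB17-SCID mice, which still hold mouse stromal, vascular and myeloid cells. The arm with filanesib held the triple combination of filanesib, pomalidomide and dexamethasone, filanesib plus pomalidomide, filanesib plus dexamethasone, and filanesib alone. The arm without filanesib held pomalidomide plus dexamethasone, pomalidomide alone, dexamethasone alone, and control mice that received the PBS vehicle. Doses were 10 mg/kg for filanesib, 8 mg/kg for pomalidomide and 0.5 mg/kg for dexamethasone, over 2 days. The labels do not say that each array came from a separate mouse, so p-values measure the spread between arrays. The labels name the mouse as organism, but the probes are human. Of plasma cell genes, SDC1, the syndecan CD138, averaged 10.07 and the secretory transcription factor XBP1 10.72 over all arrays, while the array medians lay between 3.65 and 3.73. The 15 measured genes of the plasma cell identity list had mean levels between 4.06 and 11.06, and 11 of them reached a mean of 5. In bulk tumours, fewer cells of a type and less RNA per cell cannot be told apart.

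Pomalidomide binds cereblon, the substrate receptor of a ubiquitin ligase. Bound cereblon recruits IKZF1 and IKZF3, transcription factors of the lymphoid lineage, whose loss in myeloma cells is followed by lower IRF4 and MYC and by expression of interferon-stimulated genes. Dexamethasone activates the glucocorticoid receptor, which switches on genes such as FKBP5, PER1 and TSC22D3 and represses inflammatory genes. The pair is a standard of care in relapsed myeloma. Filanesib inhibits KIF11, the kinesin that separates the spindle poles in mitosis.

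No gene of 14884 passed the threshold of adjusted p under 0.05 in limma for the average interaction (0%), and the smallest adjusted p was 0.1788. At an unadjusted p under 0.05 there were 821 genes (5.52%), 520 positive (3.49%) and 301 negative (2.02%). The median interaction was 0.02 with a median SE of 0.14. The 95% interval of the interaction lay within -1 and 1 on the log2 scale for 14745 genes (99.1%) and within a 1.5-fold change in either direction for 12893 (86.6%). For most genes a departure of more than 1.5-fold from additive effects was therefore outside the interval, whereas smaller departures often lay within it. The 3 arrays of pomalidomide alone stood apart: their residual SDs ran between 0.19 and 0.29, against 0.13 to 0.18 in the other 21 arrays. Leaving out replicates 1 and 3 of that group also gave 0 genes, with 977 at an unadjusted p under 0.05.

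**Figure D1:**
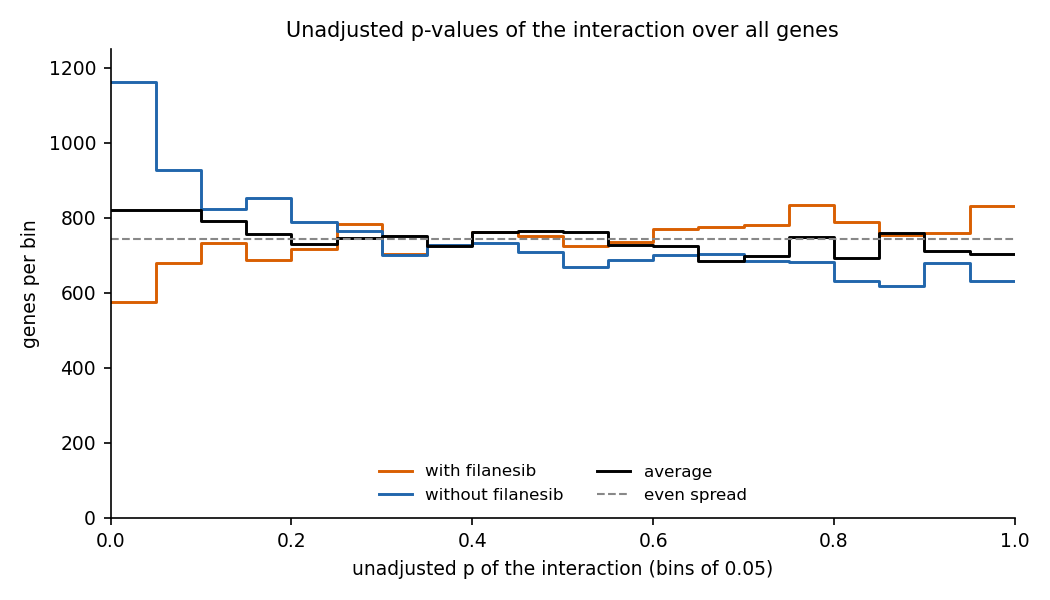
Number of genes in each 0.05-wide bin of the unadjusted p of the interaction, for the arm with filanesib, the arm without filanesib and their average; the dashed line is an even spread of 744.2 genes per bin. The lowest bin holds 576 genes with filanesib, 1163 without filanesib and 821 in the average, from the fit to all 8 groups. In fits to the 4 groups of each arm only, 831 genes with filanesib and 816 without had an unadjusted p under 0.05.

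For the 6 positive genes with the smallest p, the level with both drugs was above the sum of the single effects in each arm. These genes, like the 6 negative ones below, were chosen by the p of the average over the arms. That choice favours genes with the same sign in each arm, so the shared sign is not separate evidence of agreement. CENPH, a kinetochore protein that links centromeres to the spindle, was at 5.0, 5.14 and 4.81 in the triple combination, 4.85, 4.64 and 4.61 with filanesib plus pomalidomide, 5.06, 4.81 and 5.08 with filanesib plus dexamethasone, and 5.23, 4.92 and 5.30 with filanesib alone. Without filanesib it was at 4.72, 5.03 and 4.46 with pomalidomide plus dexamethasone, 4.39, 4.26 and 4.18 with pomalidomide, 4.52, 4.45 and 4.69 with dexamethasone, and 5.25, 4.94 and 5.03 in control. The pomalidomide arrays lay below every other array of the arm without filanesib. In the arm with filanesib, the triple combination overlapped each of the other 3 groups. The interaction of CENPH was 0.72 ± 0.14 (SE, 95% interval 0.43 to 1.01, adjusted p = 0.1788), at 0.46 with filanesib and 0.98 without.

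GINS2, a subunit of the GINS complex that activates the replicative helicase, had the largest interaction of the 6 positive genes with the smallest p. It was at 5.51, 5.37 and 5.38 in the triple combination, 4.89, 4.57 and 5.10 with filanesib plus pomalidomide, 5.50, 5.62 and 5.93 with filanesib plus dexamethasone, and 6.15, 5.38 and 5.83 with filanesib. In the arm without filanesib it was at 5.0, 5.36 and 5.31 with pomalidomide plus dexamethasone, 4.35, 4.87 and 4.93 with pomalidomide, 5.15, 5.25 and 5.31 with dexamethasone, and 5.78, 5.68 and 5.43 in control. In both arms all arrays of pomalidomide without dexamethasone lay below all arrays of pomalidomide with it. The interaction was 0.78 ± 0.18 (1.72-fold, 95% interval 0.41 to 1.15), at 0.66 with filanesib and 0.90 without, and did not pass (adjusted p = 0.4832).

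EEF1G, the gamma subunit of translation elongation factor 1, was among the brightest genes and had nearly the same value in both arms. Without filanesib it was at 10.91, 10.80 and 10.80 with pomalidomide plus dexamethasone, 10.55, 10.69 and 10.62 with pomalidomide, 10.68, 10.66 and 10.74 with dexamethasone, and 11.02, 10.95 and 10.79 in control. Every array of either single drug was below every array of the pair and of control. With filanesib the triple combination was at 10.91, 10.91 and 10.62, filanesib plus pomalidomide at 10.57, 10.69 and 10.85, filanesib plus dexamethasone at 10.46, 10.55 and 10.64, and filanesib at 10.91, 10.76 and 10.92. There the triple combination overlapped each of the other 3 groups. The interaction of 0.43 ± 0.10 (0.42 with filanesib, 0.45 without) did not pass (adjusted p = 0.5606). The other 3 of the 6 were the zinc finger gene ZSCAN16 at 0.71 ± 0.14, LSP1P5, a pseudogene whose probes can share sequence with its parent gene, at 0.70 ± 0.15, and the ubiquitin ligase LRSAM1 at 0.43 ± 0.10. Their adjusted p ran between 0.1788 and 0.5475.

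Of the 6 negative genes with the smallest p, MIR206 was higher on average with either single drug than with both or neither, in each arm. MIR206, the gene of a microRNA best known from skeletal muscle, was at 3.00, 2.91 and 3.18 in the triple combination, 3.53, 3.19 and 3.41 with filanesib plus pomalidomide, 3.50, 3.18 and 3.12 with filanesib plus dexamethasone, and 3.14, 2.75 and 2.88 with filanesib. Without filanesib it was at 2.98, 2.77 and 2.76 with pomalidomide plus dexamethasone, 3.42, 3.11 and 3.74 with pomalidomide, 3.21, 3.06 and 3.45 with dexamethasone, and 3.09, 2.50 and 2.74 in control. Its mean level of 3.11 was below the lowest array median of 3.65, so the probe set was dim. The interaction was -0.87 ± 0.16 (adjusted p = 0.1788), at -0.69 with filanesib and -1.05 without. Without pomalidomide replicate 2 it was -0.95 and passed (adjusted p = 0.04773), as did the zinc finger gene ZFP90 at 0.62.

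LINC00173, a long noncoding RNA gene of mean level 5.94, had an interaction of -0.92 ± 0.20 (adjusted p = 0.3584). Its means (n = 3 each) were 6.07 in the triple combination, 6.07 with filanesib plus pomalidomide, 6.09 with filanesib plus dexamethasone and 5.59 with filanesib. Without filanesib they were 5.7 with pomalidomide plus dexamethasone, 6.51 with pomalidomide, 6.0 with dexamethasone and 5.46 in control. The triple combination and both filanesib pairs thus differed by less than the spread between replicates, and the interaction was -0.49 with filanesib and -1.36 without. The homeobox gene IRX6 (-0.59 ± 0.14), the muscle caveolin CAV3 (-0.66 ± 0.16) and MIR892A (-0.52 ± 0.13) had mean levels of 3.55, 3.00 and 2.66, below the array medians. The remaining gene, SCARNA10, is described with its family below.

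**Figure D2:**
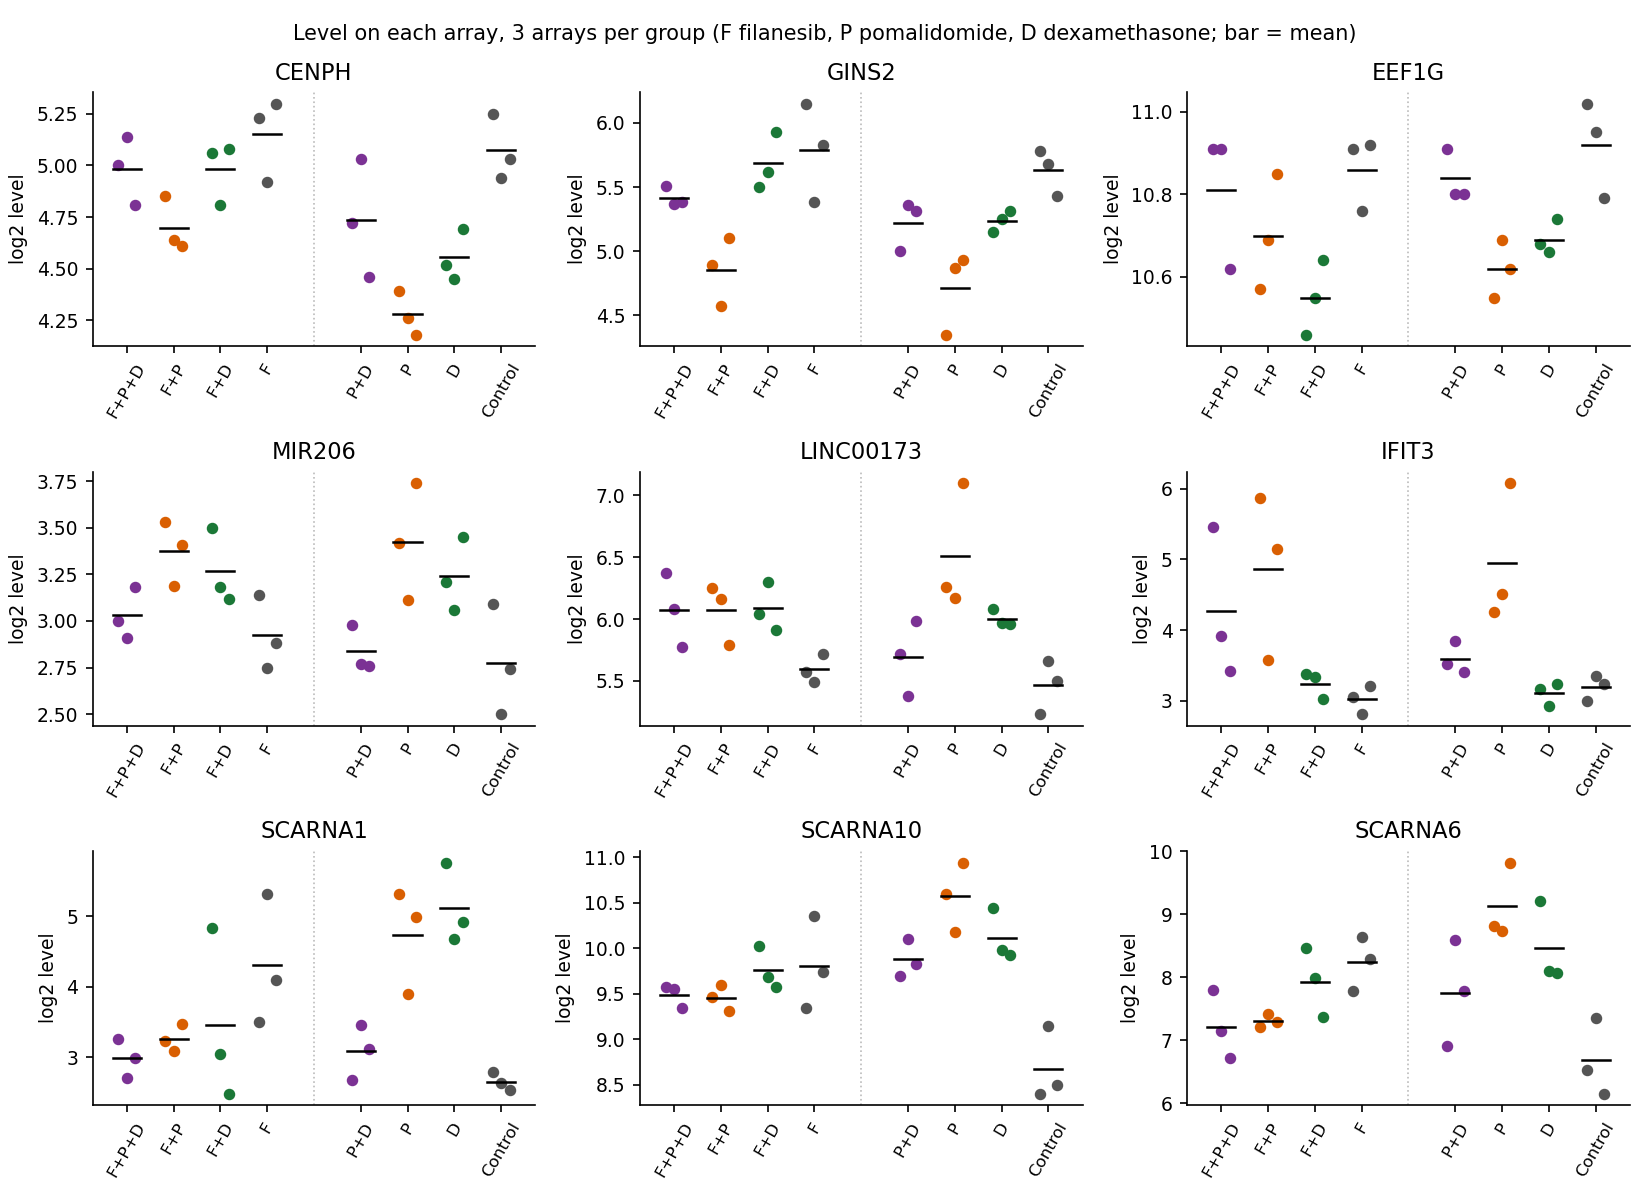
Log2 level of 9 genes on each of the 24 arrays, as points, with group means as bars; F is filanesib, P pomalidomide and D dexamethasone, the arm with filanesib stands left of the dotted line, and each panel has its own axis, which does not start at 0. GINS2 with pomalidomide and no dexamethasone lies below GINS2 with both in either arm, and the 3 control arrays of SCARNA10 lie below its other 21 arrays.

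The 2 arms hold different arrays, so their interactions can be set side by side. The interaction with filanesib and the interaction without it had a Pearson r of 0.006 across 14884 genes and a Spearman rho of -0.02, given as a description since genes are not independent. They had the same sign in 49.7% of genes. Of the 576 genes at an unadjusted p under 0.05 with filanesib, 313 (54.3%) had the same sign without it, and of the 1163 without filanesib, 549 (47.2%) had the same sign with it. There were 65 genes at an unadjusted p under 0.05 in both arms, 35 with the same sign and 30 with opposite signs. Those with the same sign included GINS2, CENPH, LSP1P5, EEF1G and LRSAM1 among 20 positive genes, and MIR206, IRX6 and CAV3 among 15 negative ones. With replicates 1 and 3 of pomalidomide alone left out, r was 0.12.

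In the arm with filanesib 0 genes passed (0%), and 576 (3.87%) had an unadjusted p under 0.05. In the arm without filanesib 5 genes passed (0.0336%), and 1163 (7.81%) had an unadjusted p under 0.05. These counts used an estimate of the spread shared by all 8 groups. In fits to the 4 groups of each arm only, 831 genes with filanesib and 816 without had an unadjusted p under 0.05. The larger count without filanesib was thus not seen when each arm had its own spread. The difference between the arms itself passed for 0 genes, with a smallest adjusted p of 0.4128 and 927 genes (6.23%) at an unadjusted p under 0.05. An interaction that depends on filanesib was thus not shown for any gene, those 5 included.

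Of the 5 genes, 4 encode small Cajal body RNAs, guides for the chemical modification of spliceosomal RNAs. SCARNA10 was at 9.69, 10.10 and 9.83 with pomalidomide plus dexamethasone, 10.59, 10.18 and 10.94 with pomalidomide, 10.44, 9.98 and 9.92 with dexamethasone, and 8.40, 9.14 and 8.49 in control. All 3 control arrays were below every other array of the series, with or without filanesib. Its interaction without filanesib was -2.14 ± 0.32 (adjusted p = 0.01147), whereas with filanesib it was 0.09, from 9.57, 9.55 and 9.34 in the triple combination, 9.46, 9.59 and 9.31 with filanesib plus pomalidomide, 10.02, 9.68 and 9.57 with filanesib plus dexamethasone, and 9.34, 10.35 and 9.74 with filanesib.

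SCARNA1 was at 2.67, 3.45 and 3.12 with pomalidomide plus dexamethasone, 5.32, 3.89 and 4.99 with pomalidomide, 5.76, 4.68 and 4.91 with dexamethasone, and 2.79, 2.63 and 2.53 in control. Each single drug was above both the pair and control with no overlap. All arrays of the pair and of control lay below the lowest array median of 3.65, so the probe set was dim in these groups. The interaction was -4.12 ± 0.65 without filanesib (adjusted p = 0.0123) and 0.57 with it. SCARNA6 had -3.15 ± 0.57 and SCARNA3 -2.54 ± 0.47 without filanesib (adjusted p = 0.04446 for each), with 0.21 and 0.48 with filanesib. The fifth gene, ZSCAN16, had 1.07 ± 0.20 without filanesib (adjusted p = 0.04446) and 0.36 with it.

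Over all 23 measured small Cajal body RNA genes the median interaction was 0.07 with filanesib, -0.58 without and -0.25 on average. In the average, 8 had a negative interaction at an unadjusted p under 0.05 (34.8%, against 2.02% of all genes) and 0 a positive one (against 3.49%). The mean level of the 23 genes ran between 6.68 and 6.92 with pomalidomide plus dexamethasone, 6.86 and 7.36 with pomalidomide, 6.96 and 7.46 with dexamethasone, and 6.41 and 6.80 in control. The pair overlapped both control and pomalidomide alone, whereas each single drug lay above control. With replicates 1 and 3 of pomalidomide alone left out, the values without filanesib were -1.75 ± 0.37 for SCARNA10, -3.27 ± 0.76 for SCARNA1, -2.76 ± 0.67 for SCARNA6 and -2.0 ± 0.52 for SCARNA3, and the list's median was -0.65. None of the 4 then passed (adjusted p between 0.271 and 0.4373), and MIR345 was the 1 gene called (1.72). None passed either without control replicate 3, dexamethasone replicate 1 or replicate 1 of pomalidomide plus dexamethasone, where 0 genes passed. Without pomalidomide replicate 2, 19 genes passed. Over the 24 omissions of an array, SCARNA10 and SCARNA1 were each called in 21, SCARNA6 in 9, SCARNA3 in 6 and ZSCAN16 in 4. In a fit to the 4 groups without filanesib only, SCARNA1 was the 1 gene called.

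**Figure D3:**
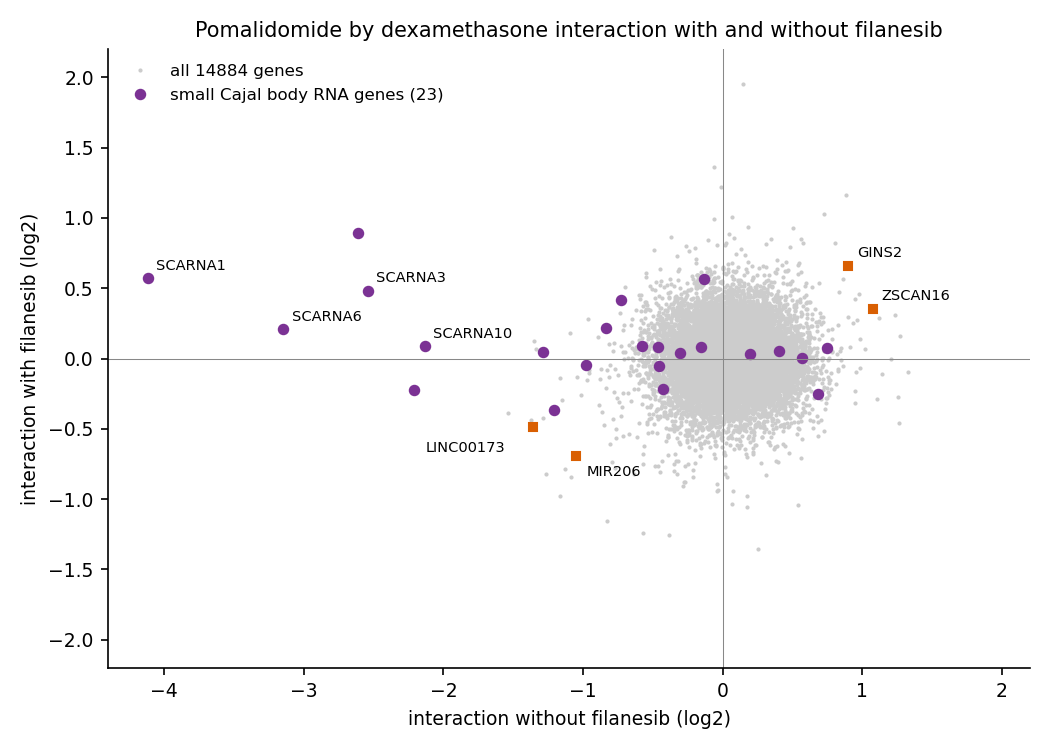
Interaction with filanesib (vertical, log2) against interaction without filanesib (horizontal, log2) for 14884 genes as grey points, 23 small Cajal body RNA genes as purple circles and 4 other named genes as orange squares. The cloud has no slope (r 0.006), and SCARNA1, SCARNA6, SCARNA3 and SCARNA10 extend to the left between -4.12 and -2.14 while staying between 0.09 and 0.57 on the vertical axis.

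The same data can be read as the effect of pomalidomide with and without dexamethasone, again on separate arrays. With dexamethasone, pomalidomide changed 95 genes (0.638%), 72 higher (0.484%) and 23 lower (0.155%). Without dexamethasone it changed 374 genes (2.51%), 143 higher (0.961%) and 231 lower (1.55%). That balance depended on scaling: 183 were higher and 171 lower after a further quantile normalisation, and 185 higher and 157 lower after median centring. The 60 genes called both times all had the same sign. They were 63.2% of the 95 and 16% of the 374. Of the 95, 95 had the same sign without dexamethasone, and of the 374, 340 had the same sign with it. The correlation of the effects across genes was 0.48. The larger count without dexamethasone does not show a larger effect, since the difference between the effects is the interaction, which passed for 0 genes. The count was higher without dexamethasone in each of the 24 omissions of 1 array. With replicates 1 and 3 of pomalidomide alone left out together, which leaves that group 1 array, 143 genes passed with dexamethasone and 90 without. Single arrays moved the counts as well. With dexamethasone the count was 25 without replicate 1 of the triple combination, 26 without replicate 1 of pomalidomide plus dexamethasone and 146 without pomalidomide replicate 3. It was 37, 35 and 50 without replicates 1, 2 and 3 of filanesib plus dexamethasone, and 58 and 60 without dexamethasone replicates 1 and 3. In the absence of dexamethasone it was 243 and 230 without replicates 1 and 3 of filanesib plus pomalidomide, 200 and 203 without filanesib replicates 1 and 3, and 218 and 245 without control replicates 1 and 3.

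Read the other way, dexamethasone changed 0 genes with pomalidomide (0%, with 1025 or 6.89% at an unadjusted p under 0.05) and 1 gene without it (0.00672%, with 926 or 6.22% at an unadjusted p under 0.05). That gene was MIR876, at a mean level of 2.21 far below the array medians.

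Interferon-stimulated genes had a positive median effect of pomalidomide with and without dexamethasone. Of 37 measured, 11 rose with dexamethasone (against 0.484% of all genes) and 21 without (against 0.961%), or 13 and 13 with replicates 1 and 3 of pomalidomide alone left out. Their median pomalidomide effect was 0.43 with dexamethasone and 0.57 without, against 0.00 and -0.02 over all genes. Their median interaction was -0.14, 7 of 37 were positive against 56.5% of all genes, and 3 had a negative interaction at an unadjusted p under 0.05 (8.11%, against 2.02% of all genes). None passed over all genes. With replicates 1 and 3 of pomalidomide alone left out the median interaction was -0.09, with 10 positive and 1 negative at an unadjusted p under 0.05, and without dim genes it was -0.09 over 26 genes. The mean level of the list ran between 5.99 and 6.54 in the triple combination, 6.08 and 6.72 with filanesib plus pomalidomide, 5.92 and 6.17 with pomalidomide plus dexamethasone, and 6.15 and 6.65 with pomalidomide. In the 12 arrays without pomalidomide it ran between 5.54 and 5.76, below all arrays with it.

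XAF1, an interferon-induced antagonist of the apoptosis inhibitor XIAP, was at 8.57, 7.99 and 7.93 in the triple combination, 8.80, 7.78 and 8.97 with filanesib plus pomalidomide, 6.76, 6.61 and 6.61 with filanesib plus dexamethasone, and 6.31, 6.70 and 6.26 with filanesib. In the other arm it was at 7.92, 7.40 and 7.68 with pomalidomide plus dexamethasone, 7.68, 8.25 and 8.11 with pomalidomide, 6.35, 6.56 and 6.52 with dexamethasone, and 6.22, 6.77 and 6.54 in control. All 12 arrays with pomalidomide were above all 12 without it. Pomalidomide raised it by 1.34 with dexamethasone (adjusted p = 0.000235) and by 1.80 without (adjusted p = 2.215e-06), and the interaction was -0.45 ± 0.23 (95% interval -0.94 to 0.03, adjusted p = 0.895).

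The interferon-induced genes IFIT1 and IFIT3 had the largest negative interactions of the list. IFIT3 was at 5.46, 3.92 and 3.42 in the triple combination, 5.87, 3.58 and 5.15 with filanesib plus pomalidomide, 3.38, 3.33 and 3.02 with filanesib plus dexamethasone, and 3.05, 2.81 and 3.21 with filanesib. Without filanesib it was at 3.52, 3.85 and 3.41 with pomalidomide plus dexamethasone, 4.25, 4.51 and 6.08 with pomalidomide, 3.16, 2.93 and 3.24 with dexamethasone, and 3.00, 3.35 and 3.24 in control. The pair was below pomalidomide alone on every array, but the triple combination overlapped filanesib plus pomalidomide, and arrays of 1 group differed by more than 2 log2 units. The interaction was -1.04 ± 0.47 for IFIT3 and -0.96 ± 0.43 for IFIT1 (adjusted p = 0.8915 for each), and -0.59 ± 0.25 for the membrane protein IFITM3 (adjusted p = 0.8776). Pomalidomide raised IFIT3 by 1.80 without dexamethasone (adjusted p = 0.003959), while its effect of 0.76 with dexamethasone did not pass (adjusted p = 0.4999). The chemokine CXCL10 rose in both settings, by 2.06 with dexamethasone and 1.82 without, with an interaction of 0.23 ± 0.45. That of CXCL10 was 0.60 with replicates 1 and 3 of pomalidomide alone left out, and turned to -0.14 without dexamethasone replicate 3.

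**Figure D4:**
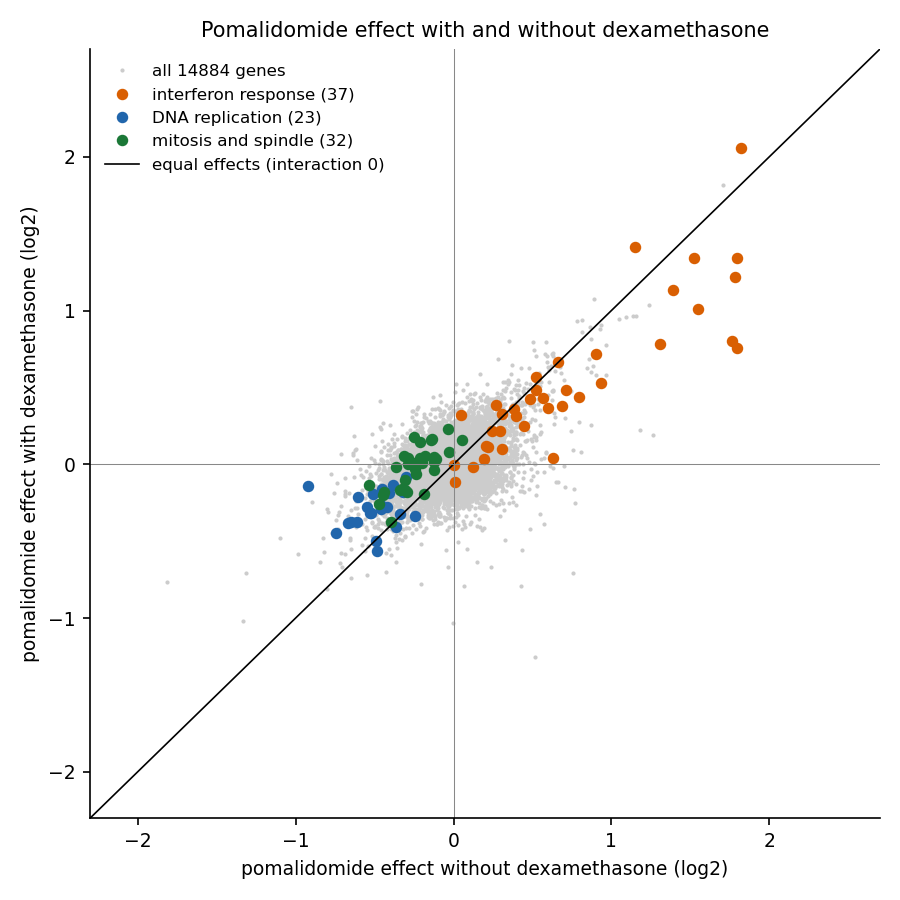
Effect of pomalidomide with dexamethasone (vertical, log2) against its effect without dexamethasone (horizontal, log2) for 14884 genes in grey, with 37 interferon, 23 DNA replication and 32 mitosis genes coloured; on the diagonal line the interaction is 0. Interferon genes extend to the upper right, most of them below the line, and replication genes to the lower left, most of them above it, so that the medians of both lists lie nearer to 0 with dexamethasone.

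DNA replication genes had a negative median effect of pomalidomide. Of 23 measured, 2 fell with dexamethasone (against 0.155% of all genes), the helicase factors MCM10 and CDC45, and 17 fell without it (against 1.55%). Their median effect was -0.29 with dexamethasone and -0.48 without. With replicates 1 and 3 of pomalidomide alone left out, 2 fell in either setting, at median effects of -0.29 and -0.39. The median interaction was 0.22, at 0.04 with filanesib and 0.42 without, and 0.09 with those 2 arrays left out. Of the 23, 19 were positive (82.6%, against 56.5% of all genes), and 3 had a positive interaction at an unadjusted p under 0.05 (13%, against 3.49%). These were GINS2 and the helicase subunits MCM6 (0.39 ± 0.15) and MCM2 (0.32 ± 0.13). MCM2 was at 0.01 with filanesib and 0.62 without.

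Mitosis and spindle genes had a median interaction of 0.21, at 0.10 with filanesib and 0.32 without. Of the 32, 31 were positive (96.9%, against 56.5% of all genes). Single values were small: 4 had an unadjusted p under 0.05 (12.5%, against 3.49% of all genes), and none passed. Among the 4 were the phosphatase CDC25C (0.37 ± 0.16), the centrosomal kinase NEK2 (0.43 ± 0.19) and the passenger protein CDCA8 (0.35 ± 0.16). The count of 4 depended on scaling: it was 0 after a further quantile normalisation and 2 after median centring. The list's median pomalidomide effect was 0.00 with dexamethasone, with none of 32 called, and -0.25 without, with 4 fallen. After a further quantile normalisation or median centring, 1 had fallen without dexamethasone. With replicates 1 and 3 of pomalidomide alone left out, the median without dexamethasone was -0.23 and 0 were called. CDC20, which activates the anaphase-promoting complex, had 0.26 ± 0.13, KIF11, the target of filanesib, 0.20 ± 0.20, and cyclin B1, CCNB1, 0.11 ± 0.21, which turned just below 0 without pomalidomide replicate 2. The mean of the list ran between 7.38 and 7.60 in the triple combination and between 7.32 and 7.45 with filanesib plus pomalidomide. It ran between 6.76 and 7.02 with pomalidomide plus dexamethasone and between 6.69 and 6.93 with pomalidomide, so that these groups overlapped in both arms. Dexamethasone alone, between 6.79 and 7.02, overlapped both of the latter and lay below control, between 7.10 and 7.38. The list ran between 7.38 and 7.61 with filanesib plus dexamethasone and between 7.135 and 7.73 with filanesib. Its median dexamethasone effect was 0.08 with pomalidomide and -0.14 without.

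The ribosome, p53 and hypoxia lists also had positive medians and no gene past the threshold. Over all genes 56.5% were positive. Ribosome biogenesis and MYC target genes had a median of 0.16, at 0.00 with filanesib and 0.33 without, with 13 of 14 positive. Of these 14, 6 had the same sign in both arms. BOP1, which processes ribosomal RNA, was the 1 gene of that list at an unadjusted p under 0.05 (0.36 ± 0.12, at 0.00 with filanesib and 0.72 without). Without filanesib it was at 7.46, 7.65 and 7.72 with pomalidomide plus dexamethasone, 6.96, 7.25 and 6.86 with pomalidomide, 7.60, 7.47 and 7.53 with dexamethasone, and 7.89, 7.52 and 7.59 in control, so that pomalidomide alone was below the other 3 groups. Targets of p53 had a median of 0.20 with 10 of 10 positive, and hypoxia and glycolysis genes 0.14 with 12 of 14 positive. The p53 median was 0.05 with filanesib and 0.26 without, and 5 of 10 had the same sign in both arms. The hypoxia median was 0.08 with filanesib and 0.25 without, and 7 of 14 had the same sign in both arms, against 49.7% of all genes. The average medians of these 3 lists, and of the replication and mitosis lists, kept their sign in each of the 24 omissions of an array, after a further quantile normalisation and after median centring. The ribosome median was 0.04, with 9 of 14 positive, without pomalidomide replicate 3, and 0.09, with 10 of 14 positive, without replicates 1 and 3 of pomalidomide alone.

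**Figure D5:**
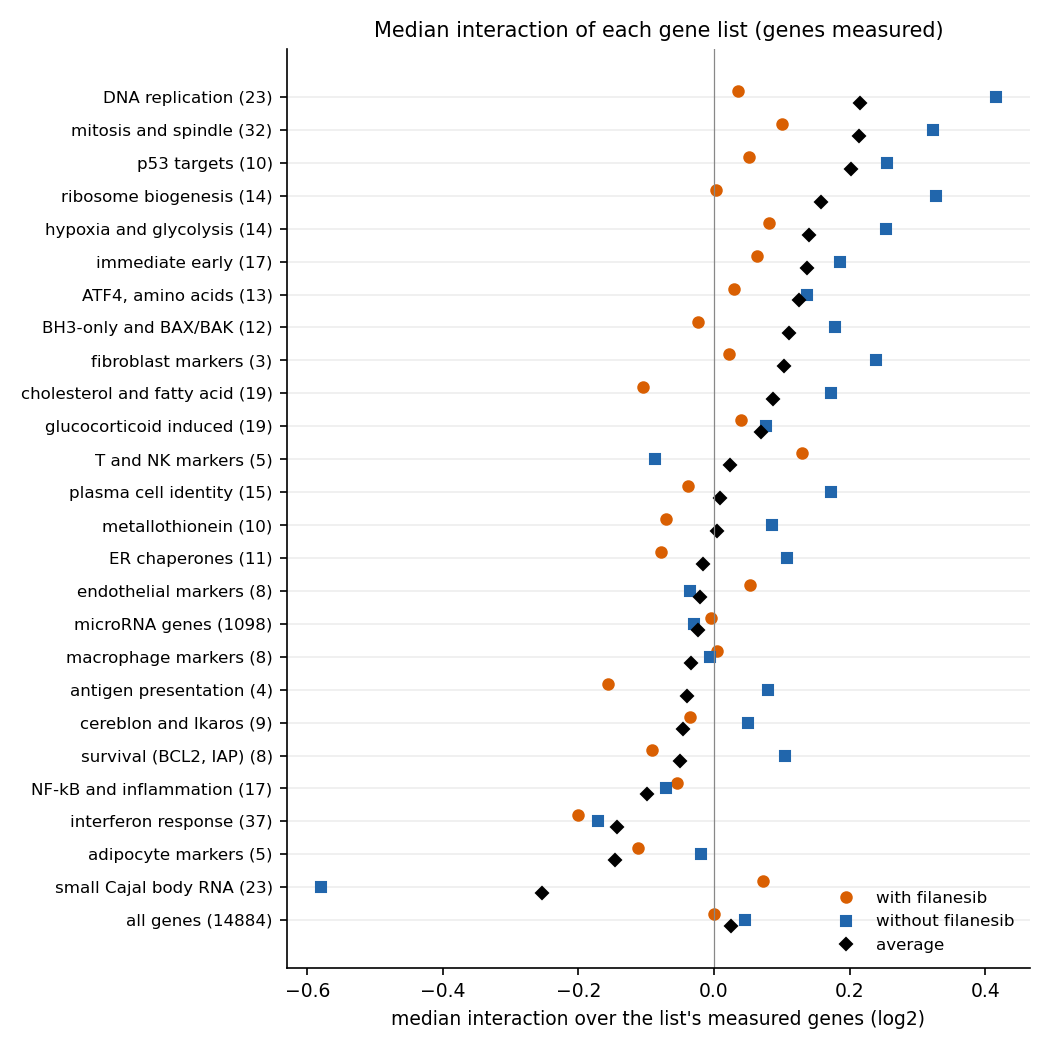
Median interaction (log2) over the measured genes of 25 gene lists and of all genes, for the arm with filanesib (circles), the arm without filanesib (squares) and their average (diamonds). The 5 lists with the highest average have larger medians without filanesib, as for DNA replication at 0.04 with filanesib and 0.42 without, and the interferon list is negative in both arms, at -0.20 and -0.17.

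Genes that glucocorticoids induce in other settings had a median interaction of 0.07, with 13 of 19 positive (68.4%, against 56.5% of all genes) and 2 at an unadjusted p under 0.05 (10.5%, against 3.49%). The median ran between 0.04 and 0.13 over the omissions, at 0.04 without control replicate 3, filanesib replicate 3, dexamethasone replicate 2, replicate 1 of filanesib plus pomalidomide, replicate 2 of pomalidomide plus dexamethasone or replicate 2 of the triple combination. It was 0.11 without filanesib replicate 2 and 0.13 without replicate 1 of the triple combination. Their median dexamethasone effect was 0.06 with pomalidomide and 0.02 without. FKBP5, a chaperone of the glucocorticoid receptor and its classical target, was at 5.70, 6.09 and 5.81 in the triple combination, 5.50, 5.37 and 5.57 with filanesib plus pomalidomide, 5.69, 5.51 and 5.74 with filanesib plus dexamethasone, and 5.59, 5.17 and 5.71 with filanesib. Without filanesib it lay between 4.86 and 5.68 with all 4 groups overlapping. Its interaction was 0.18 ± 0.17, that of the clock gene PER1 -0.14 ± 0.18, that of the transcription factor KLF9 0.15 ± 0.21 and that of the kinase SGK1 0.19 ± 0.13. The 2 genes were the phosphatase DUSP1 (0.62 ± 0.26) and the stress protein SESN1 (0.33 ± 0.13). DUSP1 was at 7.54, 9.03 and 8.00 with pomalidomide plus dexamethasone, 7.33, 7.59 and 7.50 with pomalidomide, 8.02, 7.83 and 7.16 with dexamethasone, and 8.17, 7.93 and 7.63 in control. One array of the pair, at 9.03, was above all others, and the pair overlapped the other groups.

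DUSP1 is also an early response gene, though the early response list did not hold it. That list had a median of 0.14 with 13 of 17 positive (76.5%, against 56.5% of all genes). Of the 17, 3 had a positive interaction at an unadjusted p under 0.05 (17.6%, against 3.49% of all genes). None did after a further quantile normalisation, with 11 positive, or after median centring, with 10 positive, and 1 did with a trended and robust prior. The AP-1 subunit JUN (0.46 ± 0.22) and the transcription factors KLF4 (0.34 ± 0.16) and KLF6 (0.23 ± 0.11) had unadjusted p of 0.0498, 0.049 and 0.0472. JUN was at -0.07 with filanesib and 0.98 without.

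In the cereblon and Ikaros axis no transcript passed. CRBN, the receptor of pomalidomide, was at 6.89, 7.06 and 6.94 in the triple combination, 6.92, 7.04 and 7.05 with filanesib plus pomalidomide, 6.80, 6.69 and 6.88 with filanesib plus dexamethasone, and 6.95, 7.13 and 6.97 with filanesib. Without filanesib it was at 7.41, 7.03 and 7.11 with pomalidomide plus dexamethasone, 7.54, 7.23 and 7.35 with pomalidomide, 7.02, 7.19 and 7.26 with dexamethasone, and 6.67, 6.84 and 6.81 in control. Control was below the other 3 groups of its arm, while filanesib alone was above filanesib plus dexamethasone. The interaction was 0.19 with filanesib, -0.57 without and -0.19 ± 0.11 on average, and the difference between arms of 0.76 ± 0.23 did not pass (adjusted p = 0.7906).

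IKZF3 had an interaction of 0.43 ± 0.20 (adjusted p = 0.8915) at a mean level of 3.44, below the array medians, and IKZF1 0.21 ± 0.13, or 0.03 with replicates 1 and 3 of pomalidomide alone left out. IRF4, the plasma cell factor on which myeloma cells depend, had 0.01 ± 0.23. It was at 9.48, 9.86 and 10.07 with pomalidomide plus dexamethasone, 9.47, 10.04 and 9.20 with pomalidomide, 9.87, 10.38 and 10.78 with dexamethasone, and 10.30, 10.19 and 10.43 in control. Its pomalidomide effect of -0.53 with dexamethasone (adjusted p = 0.1687) and -0.54 without (adjusted p = 0.07075) did not pass. The interaction changed sign after a further quantile normalisation (-0.03) and median centring (-0.02). MYC had 0.17 ± 0.13. Among death and survival genes, the values were 0.08 ± 0.21 for BCL2L11, which encodes BIM, 0.17 ± 0.14 for the BH3-only gene BMF and 0.19 ± 0.12 for MCL1. BCL2L11 turned to -0.06 with replicates 1 and 3 of pomalidomide alone left out. BMF rose with pomalidomide in the presence of dexamethasone (adjusted p = 0.02586), but did not pass there with the mean of a gene's probe sets. It missed the threshold without dexamethasone (adjusted p = 0.1), and the test of the interaction (adjusted p = 0.9458) does not separate the effects.

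None of the markers of other cell types passed for the interaction. They were measured on human probes, which can see the host's cells only where mouse RNA cross-hybridises. The median was -0.03 for 8 macrophage markers, -0.02 for 8 endothelial, 0.10 for 3 fibroblast, -0.15 for 5 adipocyte and 0.02 for 5 T and NK cell markers. The scavenger receptor CD163 was the 1 gene of these lists at an unadjusted p under 0.05, with -0.29 ± 0.12 at a mean level of 2.95. The mean of the macrophage list ran between 5.03 and 5.16 in the triple combination and between 4.92 and 5.11 with filanesib plus pomalidomide, 4.90 and 5.17 with filanesib plus dexamethasone, and 4.87 and 5.01 with filanesib. It ran between 5.12 and 5.22 with pomalidomide plus dexamethasone, 5.07 and 5.19 with pomalidomide, 4.95 and 5.0 with dexamethasone, and 4.89 and 4.99 in control. Without filanesib every array with pomalidomide was thus above every array without it. The median pomalidomide effect over the 8 markers was 0.03 with dexamethasone and 0.02 without. CD68, a lysosomal glycoprotein of macrophages, was the member of that list that rose with pomalidomide, by 0.94 with dexamethasone (adjusted p = 0.0004132) and 1.05 without (adjusted p = 0.0001158). It ran between 9.63 and 10.42 in the 12 arrays with pomalidomide and between 8.56 and 9.36 in the 12 without, and its interaction was -0.10 ± 0.18. CD14, CD163 and LYZ had mean levels of 3.07, 2.95 and 2.67, below the array medians. The part of such cells in the rise of interferon-stimulated genes was not tested.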

How the data were processed

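Plasmacytoma RNA was measured on 24 human Affymetrix gene arrays. The authors deposited log2 values. The submitters' processing notes name RMA and Affymetrix Expression Console; versions are not given in the sources used here. Of 53617 probe sets, 16098 carried 1 gene symbol and 37519 none, and the brightest probe set per gene left 14884 genes. Quantile normalisation, a step of RMA, hides a change shared by most genes. A mean per group was fitted with limma 3.58.1 in R 4.3.3 (16 residual degrees of freedom, eBayes, two-sided, Benjamini-Hochberg over all genes, threshold 0.05) after a test on simulated data. The number of arrays limits the precision. Errors are SE of the fit or, for groups, SD.

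The comparison and the 26 gene lists, of which the histone list had 0 measured genes, were chosen with earlier results of these data known. Named genes were those past the threshold of the average interaction (up to 12 a direction, or the 6 with the smallest p where under 5 passed), of either arm or of their difference (up to 4), up to 3 per list with the smallest p, and a fixed series, from which NR3C1 had no probe set of a single symbol. MCM10, CDC45, LYZ, ZFP90 and MIR539 were named after their values were seen. Lists are described by counts and medians, without tests. Sequences were not used here. Alternatives were another quantile normalisation, median centring, omission of dim or small RNA genes, other probe set rules, array weights, a trended and robust prior, a replicate block, a 1.5-fold minimum, a fit to 1 arm, and omission of arrays.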

Additional observations from a re-analysis of the deposited data

How the results depend on the processing

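The average interaction gave 0 genes under 10 of the 11 alternatives other than omissions of 1 array; a replicate block gave 1, MIR206 (adjusted p = 0.02528). Omitting each array gave 0 to 2 genes, the 2 being MIR206 and ZFP90. The count of 5 without filanesib was 2 after another quantile normalisation, 3 without dim genes, 0 without small RNA genes, 2 over every probe set, 3 with array weights, 1 with a trended and robust prior, 2 with a replicate block, 0 with a minimum change of 1.5-fold, 1 without pomalidomide replicates 1 and 3, and 1 in a fit to that arm only; omissions gave 0 to 19. Omissions gave 0 to 1 gene with filanesib (MIR539 without dexamethasone replicate 3) and for the difference between arms (SCARNA1 without replicate 1 of filanesib plus dexamethasone), 25 to 146 for pomalidomide with dexamethasone, 200 to 551 for pomalidomide without it, 0 for dexamethasone with pomalidomide and 1 without. Pomalidomide with dexamethasone gave 294 genes with array weights, 0 with the 1.5-fold minimum and 143 without the 2 pomalidomide arrays; without dexamethasone it gave 599, 1 and 90. Dexamethasone without pomalidomide gave 0 genes without dim genes, without small RNA genes or with the 1.5-fold minimum, and 4 with array weights. For pomalidomide without dexamethasone, higher and lower calls were 143 and 231, but 183 and 171 after another quantile normalisation and 185 and 157 after median centring. Single genes whose interaction changed sign were IRF4 (-0.029 after quantile normalisation, -0.016 after median centring, -0.13 with array weights, -0.23 without the 2 pomalidomide arrays), CD2 (-0.00029 after median centring), B2M (0.027 and 0.024), SCD (0.086) and MXI1 (-0.026) with the mean of a gene's probe sets or, for the second value of B2M, without the 2 arrays. So did FN1 (-0.028) and BCL2L11 (-0.018) with array weights, and BCL2L11 (-0.055), ACLY (-0.028), CD68 (0.0082) and DCN (-0.015) without the 2 arrays. The cause was not tested. In omissions, 10 genes crossed 0: CD2 (-0.031 to 0.077), TAPBP (-0.14 to 0.0060), FN1 (-0.027 to 0.19), IRF4 (-0.11 to 0.13), BCL2L11 (-0.043 to 0.21), ERAP1 (-0.12 to 0.019), DDIT4 (-0.051 to 0.32), MANF (-0.025 to 0.13), CXCL10 (-0.14 to 0.53) and CCNB1 (-0.00072 to 0.23). Replicate numbers did not pair the arrays: deviations of 84 same-numbered pairs correlated between -0.32 and 0.31, 17 over 0.1, and 5 of 24 arrays matched their own number best. Without pomalidomide replicates 1 and 3 that group has 1 array, assumed to vary like the others.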

Other observations

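Probe sets with no gene symbol were outside the comparisons by gene. Of 37519, 0 passed for the average interaction and 2654 (7.07%) had an unadjusted p under 0.05, over a test of all 53617 probe sets. In the arm without filanesib 8 of them passed.

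Metallothioneins, metal-binding proteins that glucocorticoids and zinc can induce, were mixed: 5 of 10 were positive, with MT1H at -0.60 ± 0.17 and MT3 at 0.48 ± 0.22, neither past the threshold. Among 1098 microRNA genes, 49 were positive and 49 negative at an unadjusted p under 0.05 (4.46% each). MIR345 had 0.77 ± 0.19, at 0.31 with filanesib and 1.24 without. In the amino acid response list, PHGDH, the first enzyme of serine synthesis, had 0.27 ± 0.12 and the secreted hormone STC2 0.30 ± 0.14, and 9 of 13 members were positive (69.2%, against 56.5% of all genes). The remaining lists had median interactions between -0.10 and 0.11 with 0 members at an unadjusted p under 0.05: inflammatory NF-kB targets had -0.10 (17 genes), survival genes of the BCL2 and IAP families -0.05 (8 genes), and antigen presentation genes -0.04 (4 genes). Endoplasmic reticulum chaperones had -0.02 (11 genes), plasma cell identity genes 0.01 (15 genes), cholesterol and fatty acid genes 0.09 (19 genes), and BH3-only genes with the effectors 0.11 (12 genes). The median of the 9 cereblon and Ikaros genes was -0.05, with IKZF3 the 1 gene at an unadjusted p under 0.05. Over the 24 omissions of an array this median ran between -0.08 and 0.04. The medians of the survival (-0.13 to 0.02), antigen presentation (-0.10 to 0.004), chaperone (-0.04 to 0.01) and plasma cell lists (-0.04 to 0.09) also crossed 0. So did those of the metallothionein, macrophage, endothelial, and T and NK cell lists.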
